A study of Mus musculus with 6 samples.

Results

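Collagen chain genes were examined in RNA-seq of the mouse hippocampus after chronic cerebral hypoperfusion. A gene was included when its symbol was Col, a number, the letter a and a number, which gave 44 of the 54752 genes in the count tables, and they encode the chains of 27 collagen types. The libraries came from the whole right hippocampus of male C57BL/6 wild-type mice aged 14 weeks, and the methods give the J substrain. In the BCAS group (bilateral carotid artery stenosis, 3 libraries) a microcoil was placed around each common carotid artery, the narrower coil on the right. The sham group (3 libraries) had the same operation without coils. Neither group carried a transgene, and tissue was taken 3 weeks after surgery. Library totals ran from 29652456 to 35607098 counts.

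Collagens are proteins of the extracellular matrix in which chains wind around each other into a triple helix. The helix needs the small amino acid glycine at the first place of every amino acid triplet. Fibrillar collagens (types I, II, III, V, XI, XXIV and XXVII) have a long helix with few or no breaks, and the common ones pack into fibrils. Network-forming type IV collagen has many short breaks in its helix and builds the sheet of the basement membrane, the layer that surrounds brain endothelium and separates vessels from astrocyte endfeet. Types XV and XVIII, the multiplexins, lie in basement membrane zones and have a helix with long breaks. The remaining types include the beaded filaments of type VI, the fibril-associated collagens with interrupted helices (FACITs) and chains that span the cell membrane. In the healthy brain parenchyma fibrillar collagen is sparse, and most of it lies in the meninges and around larger vessels.

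The difference between the classes can be read in the coding sequence. In the longest GENCODE M21 coding transcript of each gene, runs of triplets that begin with a glycine codon (GGN) were counted. The longest uninterrupted run had a median of 338 triplets over the 11 fibrillar chains, with a range of 216 to 344, and the shortest were those of Col24a1 (216) and Col27a1 (217). Over the 6 type IV chains it was 39 to 66 triplets, in both multiplexins it was 30, and over all 33 chains outside the fibrillar class the highest value was 113. The 90 bases shown here for 4 chains the results turn on are written 5′ to 3′ on the coding strand. Capitals mark the glycine codons that begin a triplet of a run. The repeat within the longest run of fibrillar chains can thus be set beside the breaks of type IV chains. Both fibrillar stretches were taken from the middle of the longest run, codons 665 to 694 of Col3a1 and 982 to 1011 of Col27a1. Each holds 10 glycine codons in capitals. The stretches of Col4a1 (codons 148 to 177) and Col4a5 (codons 1360 to 1389) were taken across the end of the longest run and hold 7 and 9 glycine codons in capitals.
Col3a1: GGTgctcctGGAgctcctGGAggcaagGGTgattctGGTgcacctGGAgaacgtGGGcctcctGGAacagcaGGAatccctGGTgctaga
Col27a1: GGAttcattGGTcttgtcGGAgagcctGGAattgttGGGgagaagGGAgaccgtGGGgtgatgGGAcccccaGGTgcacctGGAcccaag
Col4a1: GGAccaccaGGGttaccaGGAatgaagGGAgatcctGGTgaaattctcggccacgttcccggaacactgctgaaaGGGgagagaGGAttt
Col4a5: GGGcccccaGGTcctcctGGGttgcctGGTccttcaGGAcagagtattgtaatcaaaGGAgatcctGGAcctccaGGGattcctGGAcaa

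The question of the comparison was which collagen chains differed in RNA level between BCAS and sham. A larger share of chain genes than of all genes was higher in BCAS, and none passed the test in the other direction. An up-regulated DEG here had an adjusted P below 0.05 in edgeR's quasi-likelihood test, adjusted by Benjamini-Hochberg over all 18617 genes tested, and a log2 fold change above 1. Of the 43 chain genes tested, 16 (37.2%) were up-regulated DEGs, beside 8.47% of all genes tested. With the adjusted P alone, 24 chain genes (55.8%) were higher, beside 18% of all genes. There were 0 down-regulated chains, beside 0.999% of all genes, and also 0 lower chains by adjusted P alone, beside 13.2%. Only Col25a1 was lower at an unadjusted P below 0.05 in edgeR, and DESeq2 called that chain lower at an adjusted P below 0.05, with 0 down-regulated DEGs. The median log2 fold change of the tested chains was 0.96, and that of all tested genes was 0.02. In 26 chains every BCAS library lay above every sham library, which was true of 25.3% of all genes, and in Col25a1 every BCAS library lay below every sham library, which was true of 22.7%. Col10a1, a cartilage chain, was not tested, with 0 to 6 counts per library. In whole tissue, fewer cells of a type and less RNA per cell cannot be told apart, and this holds for every level given here.

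**Figure D1:**
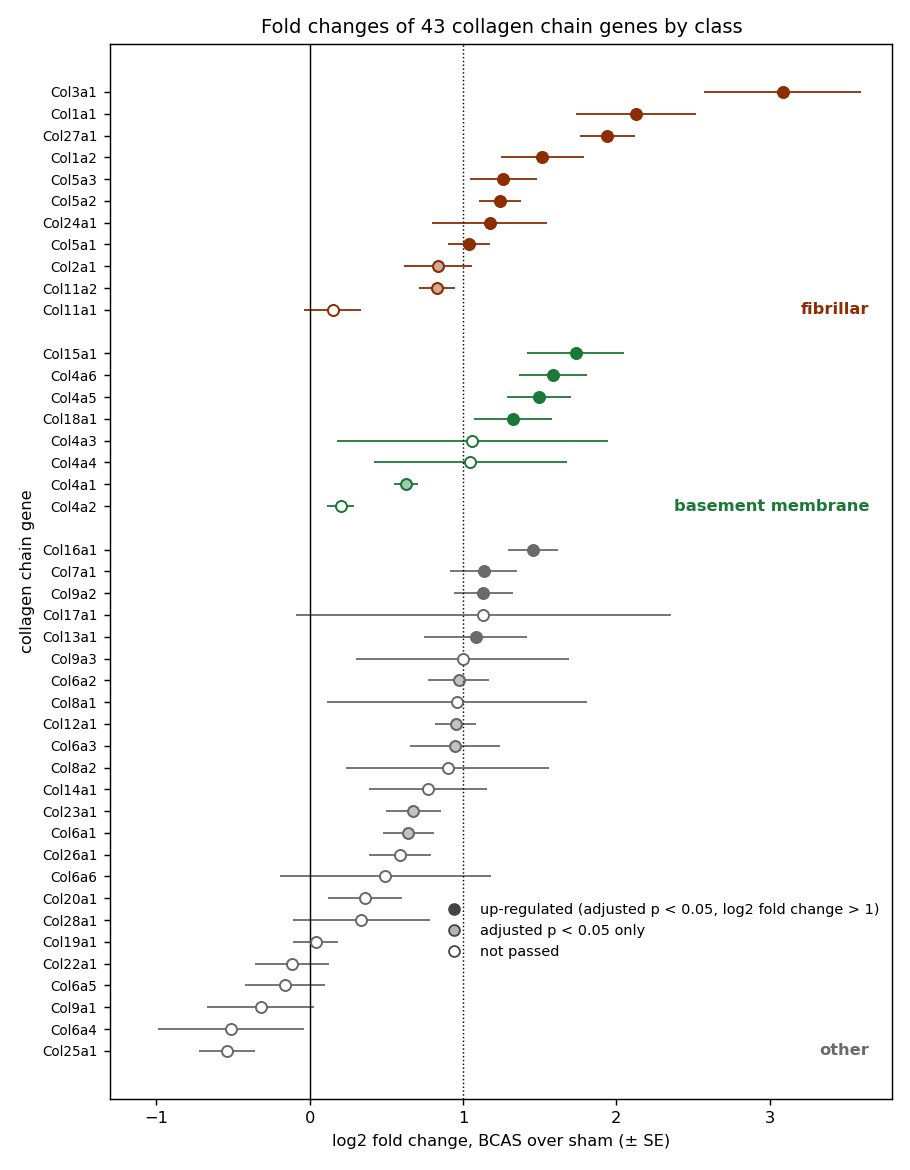
Log2 fold change of each of the 43 tested chain genes (BCAS over sham, horizontal axis) with its SE, grouped by class and sorted within it. Filled points are the 16 up-regulated DEGs, shaded points have an adjusted P below 0.05 only and open points did not pass; the dotted line marks a log2 fold change of 1, and 38 of the 43 points lie above 0.

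Counts are given by class next. Of the 11 fibrillar chains, 8 (72.7%, beside 8.47% of all genes) were up-regulated DEGs and 10 (90.9%, beside 18%) were higher by adjusted P. Their median log2 fold change was 1.24. Of the 8 basement membrane chains, 4 (50%, beside 8.47% of all genes) were up-regulated DEGs and 5 (62.5%, beside 18%) were higher, with a median of 1.19. That median lay between Col4a3 (1.06), which did not pass, and Col18a1 (1.33). Of the 24 other chains tested, 4 (16.7%, beside 8.47% of all genes) were up-regulated DEGs and 9 (37.5%, beside 18%) were higher. In this class 15 did not pass, and the median was 0.72. The difference between the classes was not tested. Among the other chains, the count of up-regulated DEGs fell to 2 without BCAS replicate 3, and the count of higher chains to 5 without sham replicate 1.

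Type I and type III chains form the common fibrils of connective tissue. Values per library are CPM, the counts of a gene scaled to a common library size, given in the order of replicates 1, 2 and 3. Col3a1 (chr1:45311538-45349706) encodes the only chain of type III collagen, the fibrillar collagen of distensible tissues and vessel walls. It stood at 4.40, 4.16 and 9.59 CPM in sham and 19.3, 79.5 and 55.5 CPM in BCAS, a log2 fold change of 3.09 ± 0.51 (SE, 3 libraries per group, adjusted P = 0.0025). The groups did not overlap, and the BCAS libraries spread 4.12-fold. Col1a1 (chr11:94936224-94953042) encodes the chain that occurs as a pair in type I collagen and was at 11.6, 9.19 and 20.9 CPM in sham and 31.0, 65.9 and 85.6 CPM in BCAS (2.13 ± 0.39, adjusted P = 0.0041). Its partner Col1a2 (chr6:4504814-4541544) was at 19.95, 17.1 and 31.3 CPM in sham and 43.6, 67.3 and 85.0 CPM in BCAS (1.52 ± 0.27, adjusted P = 0.0037). For these 3 chains BCAS replicate 1 was the lowest BCAS library and sham replicate 3 the highest sham library. Summed per length over the 3 chains, the level was 4.57 ± 1.85 RPKM (SD) in sham and 19.8 ± 8.35 RPKM in BCAS.

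Type V chains join type I in mixed fibrils and help to set fibril width. Col5a1 (chr2:27886425-28039514) was at 13.3, 15.8 and 14.5 CPM in sham and 24.8, 34.3 and 30.7 CPM in BCAS (log2 fold change 1.04 ± 0.14, edgeR adjusted P = 7.18e-04). Its fold change dropped under the threshold of 1 without sham replicate 1 (0.98) or BCAS replicate 2 (0.93), with the adjusted P still below 0.05. Col5a2 (chr1:45374321-45503282), which lies tail to tail with Col3a1 at a distance of 24614 bases, was at 7.82, 7.51 and 8.28 CPM in sham and 15.6, 19.1 and 21.1 CPM in BCAS (1.24 ± 0.14, adjusted P = 2.86e-04). Col5a3 (chr9:20770050-20815067) was at 3.13, 3.38 and 3.56 CPM in sham and 6.53, 6.995 and 10.7 CPM in BCAS (1.26 ± 0.22, adjusted P = 0.0029). All of the type V chains were thus at tight sham levels and at higher levels in each BCAS library.

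Types XXVII and XXIV are the fibrillar collagens with the shorter longest run given above, with 329 and 327 triplets in 3 runs of 5 or more each, and both are known from developing cartilage and bone. Col27a1 (chr4:63214004-63334991) had the smallest adjusted P of all chains. It was at 6.05, 5.63 and 5.10 CPM in sham and 25.6, 16.3 and 22.6 CPM in BCAS (log2 fold change 1.94 ± 0.18, adjusted P = 1.07e-04), and here BCAS replicate 1 was the highest library, unlike for the type I and III chains. Col24a1 (chr3:145292472-145552011) was near the low end of measurement, with 23 to 36 counts in the sham libraries and 38 to 79 in those of BCAS. Its levels of 0.679, 1.08 and 1.02 CPM in sham and 1.17, 2.62 and 2.50 CPM in BCAS (1.18 ± 0.37, adjusted P = 0.042) passed the test with all libraries. Leaving out any library but BCAS replicate 1 took its adjusted P to between 0.0759 and 0.137.

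Types II and XI are the fibrillar collagens of cartilage. Col11a2 (chr17:34039437-34066685), a type XI chain, averaged 3.60 RPKM in sham, where Col1a1 averaged 2.12 RPKM, and 6.40 RPKM in BCAS, where Col1a1 averaged 9.27 RPKM. It was at 26, 25.7 and 21.98 CPM in sham and 47.8, 37.7 and 45.6 CPM in BCAS (0.83 ± 0.12, adjusted P = 9.96e-04), above every sham library in each BCAS library but under the fold threshold. Col2a1, the chain of cartilage type II collagen, was at 1.91 ± 0.33 CPM (SD) in sham and 3.42 ± 0.29 CPM in BCAS (0.84, adjusted P = 0.020). Its adjusted P in edgeR was above 0.05 without sham replicate 2 or 3, up to 0.0748, and 0.0520 with the replicate number as a block. Col11a1, the partner of Col11a2 in type XI collagen, was the one fibrillar chain that did not pass, at 6.23 to 10.1 CPM in sham and 9.43 to 9.85 CPM in BCAS (adjusted P = 0.58).

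**Figure D2:**
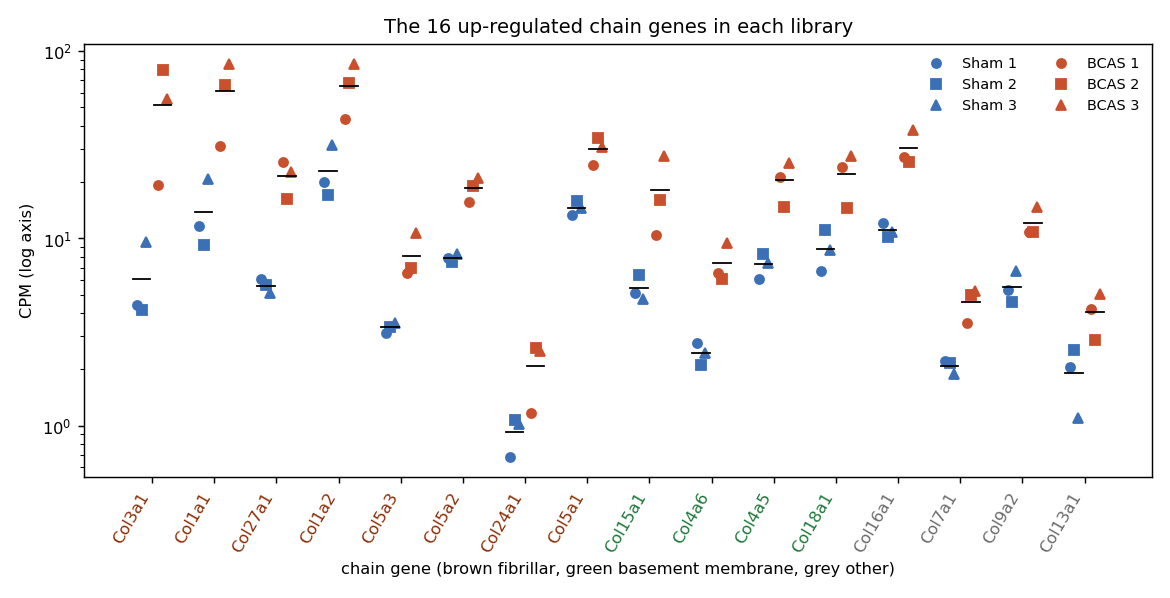
CPM (log axis) of the 16 up-regulated chain genes in each library, with circle, square and triangle for replicates 1, 2 and 3 and a bar at the group mean. No BCAS point lies within the range of the sham points of the same gene, and Col3a1 has the widest spread within BCAS, 19.3 to 79.5 CPM.

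Fibroblasts are the main source of fibrillar collagen in the meninges and around vessels, and their markers were examined beside the chains. Of 17 markers, 16 were tested, 9 (56.2%) were higher by adjusted P, beside 18% of all genes, and 4 of these (25%) were up-regulated DEGs, beside 8.47%, among them Serping1, a complement inhibitor (log2 fold change 2.06, edgeR adjusted P = 5.32e-04), and Ogn, a small proteoglycan (1.07, adjusted P = 0.0018). The fold change of Ogn was under the threshold without sham replicate 1 or 2 or BCAS replicate 3, between 0.96 and 0.99. The count of higher fibroblast markers was 5 without sham replicate 1, and that of up-regulated DEGs was 2 without sham replicate 1, sham replicate 2 or BCAS replicate 3 and 7 without sham replicate 3. The markers with the highest CPM, and so the largest parts of the sum below, did not pass. They were Dcn, the fibroblast proteoglycan decorin (0.27, adjusted P = 0.48), and Pdgfra (0.175, adjusted P = 0.17). Dpt was at or near the limit of detection, 0.0299 to 0.339 CPM. Which cells carried each marker was not measured in this whole tissue. All fibroblast markers summed to 218 to 343 CPM in sham and 391 to 490 CPM in BCAS. Col1a1, Col1a2, Col5a2, Col6a2, Col6a3 and Col9a2 had their libraries in the same order as this sum within both groups, 6 of 43 chains (14%) beside 2.94% of all genes tested. The part of these cells in the chain levels was not tested.

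Among the basement membrane chains, Col4a5, Col4a6 and both multiplexins were up-regulated DEGs. Col4a5 (chrX:141475385-141689234) and Col4a6 (chrX:141165403-141474076) lie head to head, their starts 1308 bases apart. Col4a5 was at 6.08, 8.29 and 7.43 CPM in sham and 21.4, 14.7 and 25.4 CPM in BCAS (log2 fold change 1.496 ± 0.21, edgeR adjusted P = 9.96e-04). Col4a6 was at 2.77, 2.13 and 2.45 CPM in sham and 6.56, 6.10 and 9.46 CPM in BCAS (1.59 ± 0.22, adjusted P = 0.0010). In both genes BCAS replicate 3 was the highest library and BCAS replicate 2 the lowest of its group. The multiplexin Col15a1 (chr4:47208161-47313167), found between basement membranes and fibrils, was at 5.11, 6.38 and 4.78 CPM in sham and 10.4, 16.1 and 27.6 CPM in BCAS (1.74 ± 0.32, adjusted P = 0.0040). Col18a1 (chr10:77052178-77166548), the source of the fragment endostatin, was at 6.70, 11.2 and 8.63 CPM in sham and 24.1, 14.6 and 27.7 CPM in BCAS (1.33 ± 0.26, adjusted P = 0.0051). The groups of all 4 genes stayed apart, with BCAS replicate 3 the highest library each time.

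Col4a1 and Col4a2 encode the chains of the main type IV collagen of vessels, which combines both in one helix. They had the highest levels of the class per length, 8.97 and 9.60 RPKM over all libraries, and lie head to head on chromosome 8 with an overlap of 22 bases. Col4a1 (chr8:11198423-11312826) was at 56.4, 48.9 and 52.5 CPM in sham and 81.3, 77.6 and 85.2 CPM in BCAS (log2 fold change 0.63 ± 0.08, edgeR adjusted P = 5.60e-04), a small difference with a narrow error. Col4a2 (chr8:11312805-11449287) was at 65.9, 52.9 and 58.5 CPM in sham and 67.0, 67.4 and 69.6 CPM in BCAS (0.20 ± 0.09, adjusted P = 0.117) and did not pass. Its lowest BCAS library lay just above its highest sham library. Col4a3 and Col4a4, the chains of kidney and lung basement membranes, had log2 fold changes of 1.06 ± 0.89 (adjusted P = 0.40) and 1.05 ± 0.63 (adjusted P = 0.24), with overlapping groups, and 5.65% of the exon bases of Col4a3 lie also in another annotated gene. With the class narrowed to type IV, 2 of 6 chains were up-regulated DEGs and the median was 1.05. This median lay between the values of Col4a4 and Col4a3, which did not pass and whose library order is taken up below.

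The basement membrane of brain vessels lies between endothelial cells, mural cells and astrocyte endfeet. Of 14 endothelial markers, 0 were DEGs in edgeR or in DESeq2, beside 8.47% of all genes up-regulated and 0.999% down-regulated in edgeR. By adjusted P, 8 (57.1%, beside 18% of all genes) were higher in both, and 10 at an unadjusted P below 0.05 in edgeR. The endothelial markers summed to 482 to 520 CPM in sham and 632 to 720 CPM in BCAS. Without sham replicate 1 the count of higher endothelial markers was 5, and without sham replicate 3, 1 endothelial marker was an up-regulated DEG. Their most abundant member per length, the tight junction gene Cldn5, did not pass (0.32, adjusted P = 0.067). Of 16 mural markers, 8 (50%) were higher and 1 (6.25%, under the 8.47% of all genes) was an up-regulated DEG, the potassium channel subunit Abcc9 (1.04, adjusted P = 0.0085), whose fold change was 0.92 without sham replicate 3 and 0.75 without BCAS replicate 3, and 2 mural markers were up-regulated DEGs without BCAS replicate 1. The mural sum was 379 to 482 CPM in sham and 523 to 598 CPM in BCAS. Of 10 astrocyte markers, 10 were higher and 3 (30%) were up-regulated DEGs, among them Gfap, the intermediate filament gene of reactive astrocytes (3.29, adjusted P = 7.25e-06), and Aqp4, the water channel of the endfeet (1.67, adjusted P = 2.26e-05). The third DEG, S100b, was just above the threshold (1.006), and at 0.943 to 0.997 without sham replicate 1 or 2 or BCAS replicate 2 or 3. DESeq2 called 2 astrocyte markers up-regulated DEGs. The astrocyte sum was 3870 to 4206 CPM in sham and 8833 to 9454 CPM in BCAS. The part of these cells in the chain levels was not tested.

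The balance of chains that share one helix was compared next. Levels were divided by the length of all annotated exons of the gene (RPKM) before the ratio was formed in each library. That length differed between partners, 6563 bases for Col1a1 and 12426 for Col1a2, and 4380 for Col6a1 and 8326 for Col6a2. As ratios of counts, the means were 0.595 in sham and 0.899 in BCAS for Col1a1 to Col1a2. They were 0.892 and 1.20 for Col4a1 to Col4a2, and 2.54 and 2.05 for Col6a1 to Col6a2. The size of each ratio thus depended on the lengths used, while its log2 difference between groups did not. The ratio of Col1a1 to Col1a2 was 1.10, 1.02 and 1.26 in sham and 1.35, 1.85 and 1.91 in BCAS, a log2 difference of 0.58. The ratio of Col4a1 to Col4a2 was 0.759, 0.819 and 0.796 in sham and 1.08, 1.02 and 1.09 in BCAS, a log2 difference of 0.42, so Col4a2 was the more abundant chain in each sham library and Col4a1 in each BCAS library. For both pairs the groups did not overlap, and the exact two-sided permutation P was 0.10, the smallest that 3 against 3 libraries allow (0.15 after Benjamini-Hochberg adjustment over 3 pairs). The third pair, Col6a1 to Col6a2, was at 4.77, 4.96 and 4.75 in sham and 4.8, 3.62 and 3.29 in BCAS, with overlapping groups (exact permutation P = 0.30).

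**Figure D3:**
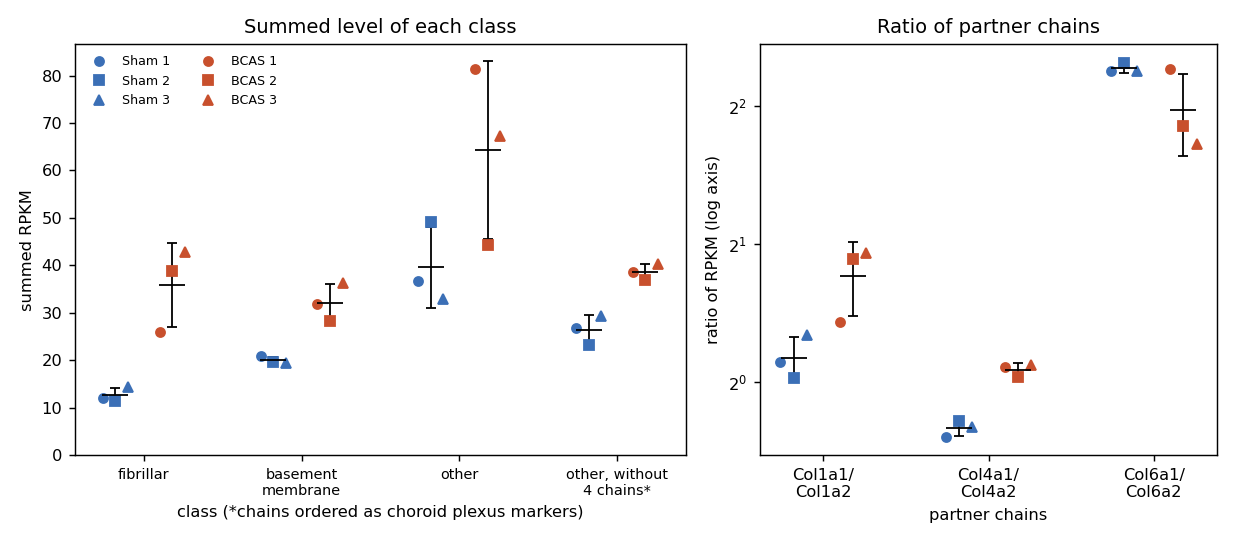
Left, RPKM summed over the chains of each class in each library, with mean and SD (bars); the class of other chains is shown with all 25 genes and again without the 4 of them whose libraries are ordered as the choroid plexus markers. Right, the ratio of partner chains in each library (log axis); the sham and BCAS points do not overlap for Col1a1/Col1a2 and Col4a1/Col4a2.

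Levels per length were also summed over each class. The fibrillar sum was 12.6 ± 1.62 RPKM (SD, 3 libraries) in sham and 35.9 ± 8.84 RPKM in BCAS, a 2.84-fold ratio of the means. The basement membrane sum was 19.98 ± 0.78 RPKM in sham and 32.2 ± 3.99 RPKM in BCAS, a 1.61-fold ratio. These sums did not overlap between the groups. The sum of the other chains was 39.6 ± 8.49 RPKM in sham and 64.3 ± 18.8 RPKM in BCAS and did overlap, with 49.2 RPKM in sham replicate 2 and 44.2 RPKM in BCAS replicate 2.

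Of the other chains, Col16a1, Col7a1, Col9a2 and Col13a1 were up-regulated DEGs. Col16a1 (chr4:130047840-130099283), a FACIT of connective tissue, was at 12.04, 10.2 and 10.9 CPM in sham and 27.2, 25.7 and 37.9 CPM in BCAS (log2 fold change 1.46 ± 0.16, edgeR adjusted P = 2.72e-04). Col7a1 (chr9:108953586-108984875), the chain of the anchoring fibrils that fix skin epithelium, was at 2.21, 2.16 and 1.895 CPM in sham and 3.54, 5.01 and 5.23 CPM in BCAS (1.14 ± 0.22, adjusted P = 0.0053). Both were higher in each BCAS library than in any sham library. Col9a2 (chr4:121039385-121055322), a chain of the cartilage FACIT type IX, was at 5.28, 4.58 and 6.71 CPM in sham and 10.8, 10.8 and 14.8 CPM in BCAS (1.13 ± 0.19, adjusted P = 0.0027). Without BCAS replicate 3 its log2 fold change was 0.96, under the threshold. Col13a1 (chr10:61838236-61979108), a membrane-spanning collagen known from the neuromuscular junction, was at 2.07, 2.54 and 1.11 CPM in sham and 4.19, 2.88 and 5.03 CPM in BCAS (1.08 ± 0.33, adjusted P = 0.037). With 38 to 157 counts per library, its adjusted P was 0.0910 without sham replicate 1, 0.101 without sham replicate 3, 0.0764 without BCAS replicate 1 and 0.12 without BCAS replicate 3.

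Type VI collagen, which forms beaded filaments around cells and vessels, had 6 chains. Of these chains 0 were DEGs in edgeR or DESeq2, beside 8.47% of all genes up-regulated and 0.999% down-regulated in edgeR. The count of up-regulated DEGs was 1 without sham replicate 3 or BCAS replicate 2 and 2 without BCAS replicate 1. Of the 6, Col6a1, Col6a2 and Col6a3 (50%, beside 18% of all genes) were higher by adjusted P, with 3 higher also at an unadjusted P below 0.05. Col6a1 (chr10:76708792-76726168), the most abundant of them per length (8.77 RPKM), was at 31.02, 22.03 and 36.9 CPM in sham and 49.4, 46.8 and 44.2 CPM in BCAS (log2 fold change 0.64 ± 0.16, adjusted P = 0.017). Without sham replicate 1 its adjusted P was 0.0585, and 1 type VI chain was higher. Col6a2 was at 11.9 ± 3.19 CPM (SD) in sham and 23.3 ± 3.22 CPM in BCAS (0.97, adjusted P = 0.0069), just under the fold threshold. Col6a3 had a log2 fold change of 0.95 (adjusted P = 0.038), and 4 of the 6 fits that left out one library took its adjusted P to between 0.072 and 0.12, those without sham replicate 1, 2 or 3 or BCAS replicate 3. The chains Col6a4, Col6a5 and Col6a6, all under 5 CPM, did not pass. Col12a1, a FACIT, was also higher under the fold threshold (0.95, adjusted P = 9.96e-04), as was the membrane-spanning Col23a1 (0.68, adjusted P = 0.021), whose adjusted P was above 0.05 without sham replicate 1 or 2, up to 0.0805.

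Col25a1 (chr3:130131501-130599877) encodes a membrane-spanning collagen of neurons whose shed part was first found in amyloid plaques. It was the only tested chain with every BCAS library below every sham library. Its sham libraries lay close together at 80.9, 78.4 and 80.6 CPM, and its BCAS libraries were at 75.5, 45.0 and 44.9 CPM. The log2 fold change was -0.54 ± 0.18 with an adjusted P of 0.0529 in edgeR, and it did not pass. Without BCAS replicate 1 the value was -0.83 with an adjusted P of 1.61e-04, and without any other library the adjusted P lay between 0.101 and 0.139. DESeq2 gave an adjusted P of 0.0097 and edgeR with the replicate number as a block 0.0372. Of 14 markers of hippocampal neurons, 10 (71.4%, beside 13.2% of all genes) were lower in BCAS by adjusted P and 2 of these (14.3%, beside 0.999%) were down-regulated DEGs, Neurod6 (-1.56, adjusted P = 0.0014) and Fibcd1 (-1.91, adjusted P = 0.0020), both genes of pyramidal neurons. Without sham replicate 2 the count of lower markers was 6. The markers summed to 11140 to 11840 CPM in sham and 5804 to 8265 CPM in BCAS. The dentate granule cell markers Prox1 and C1ql2 were present in every library and did not pass (edgeR adjusted P = 0.70 and 0.90). Prox1 was at 106, 111 and 73.9 CPM in sham and 116, 58.3 and 89.9 CPM in BCAS. C1ql2 was at 89.5, 111 and 85.9 CPM in sham and 136, 54.6 and 84.8 CPM in BCAS. Both thus differed widely between the BCAS libraries, with replicate 2 the lowest. The part of neuronal markers in the level of Col25a1 was not tested.

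The libraries of one group differed widely in several chains, and 6 chains followed the choroid plexus, the secretory epithelium of the ventricles next to the hippocampus. These 6 were Col4a3, Col4a4, Col8a1, Col8a2, Col9a3 and Col17a1, whose libraries had the order of the summed choroid plexus markers within both groups, 6 of 43 chains (14%) beside 4.3% of all genes tested. Of 7 chains that spread at least 4-fold within both groups, these were 6, and the other one was Col6a6. The 12 markers summed to 1052, 4299 and 76.7 CPM in sham and to 6276, 52.2 and 3408 CPM in BCAS. By adjusted P in edgeR, 18% of all genes were higher and 13.2% lower. Of the 12 markers 0 had a P below 0.05, adjusted or not in edgeR or adjusted in DESeq2. Their most abundant member, the transthyretin gene Ttr, was at 882, 3773 and 38.1 CPM in sham and 5461, 23.7 and 2930 CPM in BCAS. Col9a3 (chr2:180597790-180622189), a type IX chain, had the highest level of all tested chains per length when averaged over all 6 libraries (12.6 RPKM), first in BCAS (16.8 RPKM) and second to Col4a2 in sham (8.43 against 8.93 RPKM). It was at 24.8, 64.0 and 8.69 CPM in sham and 107, 20.3 and 67.7 CPM in BCAS (log2 fold change 1.00 ± 0.69, adjusted P = 0.31). Its annotated exons share 234 bases (6.07% of their length) with Tcfl5, so some of its counts may be uncertain. The type VIII chains, which form short-chain networks in Descemet's membrane of the eye, were similar. Col8a1 was at 7.29, 25.4 and 2.60 CPM in sham and 39.7, 3.95 and 24.9 CPM in BCAS, and Col8a2 at 11.2, 25.5 and 4.46 CPM in sham and 42.2, 7.39 and 27.03 CPM in BCAS. Col17a1, the hemidesmosome collagen of epithelia, had 60 counts in sham replicate 2 and 143 in BCAS replicate 1 but 2 in sham replicate 3 and 0 in BCAS replicate 2, where 3 counts were taken as the limit of detection, so no fold range is given for it. None of the 6 chains passed the test. With the log2 of the summed markers as a term in the fit, an alternative chosen after seeing the data, Col9a3 had a log2 fold change of 0.87, Col8a2 0.67, Col4a4 0.80, Col8a1 0.65, Col4a3 0.56 and Col17a1 -0.07. These chains were picked because they follow the markers, so the values of that fit are a description and carry no P. In the same fit all 16 up-regulated DEGs remained and Col6a2 joined them.

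**Figure D4:**
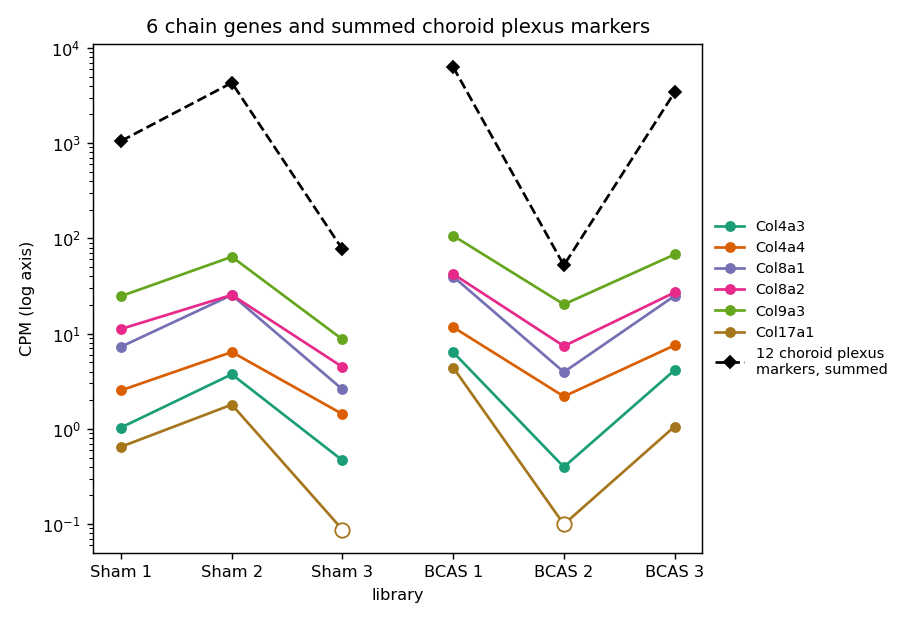
CPM (log axis) of 6 chain genes in each library beside the sum of the 12 choroid plexus markers (dashed). Lines join the points of one gene within a group and carry no order; open circles are Col17a1 libraries with fewer than 3 counts, drawn at 3 counts. Sham replicate 3 and BCAS replicate 2 are the lowest libraries of their groups for each gene and for the markers.

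Without these 6 chains, the remaining 38 chain genes summed to 58.6 ± 4.93 RPKM (SD) in sham and 106 ± 11.96 RPKM in BCAS. The sum of the other class without its 4 members among them was 26.5 ± 3.02 RPKM in sham and 38.6 ± 1.73 RPKM in BCAS, a description only, since the removed chains were picked for having the library order of the choroid plexus markers. Of the 19 chains that did not pass, 9 had means under 5 CPM in both groups. Col26a1 had a log2 fold change of 0.59 with an adjusted P of 0.0538. Col19a1 and Col20a1, FACITs with 5.19 to 10.9 CPM in the 6 libraries, had log2 fold changes of 0.04 and 0.36.

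The upstream sequences of the chain genes were compared with those of all genes. RefSeq windows of 250 bases before the annotated start (GRCm38.p6) were at hand for 35 of the 44 chain genes, in 38 windows. The GC box letters GGGCGG, searched on both strands, were in 57.9% of the chain windows and in 66.7% of the 15 windows of up-regulated chains, beside 32.7% of all 32851 windows. The letters CCAAT were in 34.2% of chain windows and 33.8% of all, and TATAAA in 13.2% and 12.4%. None of the motifs contains another, a match is only a match of letters, and binding was not measured. The 2 windows shown are those of the chain with the largest fold change, Col3a1 (chr1:45311288-45311537, plus strand), and of Col4a6 (chrX:141474077-141474326, minus strand), whose window lies in the 1308 bases between the up-regulated neighbours Col4a6 and Col4a5. Capitals mark TATAAA in the window of Col3a1 and the reverse complement of GGGCGG in that of Col4a6, and no base of either window lies in an annotated exon.
Col3a1 upstream: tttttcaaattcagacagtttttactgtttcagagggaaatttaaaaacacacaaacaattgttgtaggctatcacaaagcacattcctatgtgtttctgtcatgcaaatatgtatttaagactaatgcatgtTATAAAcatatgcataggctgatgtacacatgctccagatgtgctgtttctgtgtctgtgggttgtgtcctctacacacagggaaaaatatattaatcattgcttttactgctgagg
Col4a6 upstream: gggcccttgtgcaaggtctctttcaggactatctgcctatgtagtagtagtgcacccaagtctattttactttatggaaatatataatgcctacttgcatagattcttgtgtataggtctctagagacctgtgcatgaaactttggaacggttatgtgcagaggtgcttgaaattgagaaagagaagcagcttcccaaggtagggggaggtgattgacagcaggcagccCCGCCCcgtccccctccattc

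Genes that process collagen chains were higher in part. Chains are hydroxylated, folded with chaperones, trimmed outside the cell and cross-linked. Of 35 genes of collagen synthesis, all tested, 17 (48.6%, beside 18% of all genes) were higher by adjusted P. Up-regulated DEGs were 10 of these (28.6% of the list, beside 8.47%), and the median log2 fold change of the list was 0.52. With all libraries 0 were lower (1 at an unadjusted P below 0.05 in edgeR, 0 by adjusted P in DESeq2). Without BCAS replicate 1, 2 were lower by adjusted P in edgeR. P4ha3, a catalytic subunit of prolyl 4-hydroxylase, was at 2.54, 2.04 and 1.98 CPM in sham and 12.6, 12.4 and 16.5 CPM in BCAS (2.66 ± 0.18, edgeR adjusted P = 2.62e-05). Lox, which starts the cross-linking of fibrils, was at 1.56, 0.868 and 2.19 CPM in sham and 7.79, 12.3 and 11.99 CPM in BCAS (2.79 ± 0.32, adjusted P = 3.51e-04). No BCAS library of either gene was near the sham range. The lysyl hydroxylase Plod3 had a log2 fold change of 1.04 (adjusted P = 2.27e-04) and Crtap, a part of the prolyl 3-hydroxylase complex, 1.08 (adjusted P = 0.0012). The most abundant member per length, P4hb, the shared subunit of prolyl 4-hydroxylase, was higher by 0.69 (adjusted P = 6.08e-04), while Mia3, an export factor for large cargo, did not pass (-0.16, adjusted P = 0.12). Without BCAS replicate 3 the fold changes of Plod3 (0.92) and Crtap (0.93) were under the threshold, as was that of Crtap without sham replicate 1 (0.995), and the count of up-regulated DEGs in this list fell to 5.

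Of 12 collagen receptor genes, 11 were tested, 9 (81.8%, beside 18% of all genes) were higher by adjusted P, 4 of these (36.4%, beside 8.47%) were up-regulated DEGs and 0 were lower, with a median of 0.94. In this list and the next 2, with all libraries, 0 genes were lower also at an unadjusted P below 0.05 in edgeR or by adjusted P in DESeq2. Lair1, an inhibitory collagen receptor of leukocytes, was at 9.06, 7.45 and 9.24 CPM in sham and 57.9, 62.9 and 92.2 CPM in BCAS (log2 fold change 3.05 ± 0.19, edgeR adjusted P = 1.93e-05). Mrc2, an endocytic receptor that takes up collagen fragments, was at 11.2, 7.57 and 11.98 CPM in sham and 34.9, 36.9 and 49.6 CPM in BCAS (1.98 ± 0.20, adjusted P = 1.51e-04). Adgrg6, an adhesion receptor for type IV collagen, followed at 1.48 (adjusted P = 0.0054) and the integrin chain Itga2, at 0.359 to 1.56 CPM, at 1.22 (adjusted P = 0.036). The adjusted P of Itga2 was 0.0506 to 0.113 in the 6 fits without one library. The most abundant members per length, Ddr1 and Itgb1, were higher by 0.75 (adjusted P = 0.0037) and 0.94 (adjusted P = 3.95e-04), and the only tested receptors that did not pass were 2 of the 11. Markers of microglia and macrophages, cells that carry Lair1, were up-regulated DEGs in 12 of 13 cases (92.3%, beside 8.47% of all genes), with a median log2 fold change of 2.73 and sums of 361 to 379 CPM in sham and 2446 to 3955 CPM in BCAS. C1qa, a complement chain with a collagen-like stem, was the most abundant of them per length (3.95, adjusted P = 8.27e-06). The part of these cells in the receptor levels was not tested.

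Of 20 genes whose products share the basement membrane with type IV collagen, 10 (50%, beside 18% of all genes) were higher by adjusted P, 3 of these (15%, beside 8.47%) were up-regulated DEGs and 0 were lower, with a median of 0.82. Sparc, a collagen-binding glycoprotein and the most abundant member per length, was at 239.9, 246 and 266 CPM in sham and 571, 604 and 870 CPM in BCAS (log2 fold change 1.45 ± 0.16, edgeR adjusted P = 2.49e-04). The linker proteins Nid1 (1.33, adjusted P = 0.0024) and Nid2 (1.18, adjusted P = 0.046) were the other up-regulated DEGs, the latter with an adjusted P of 0.119 to 0.159 without sham replicate 1 or 3 or BCAS replicate 1 or 3, while the proteoglycan gene Agrn did not pass (0.11, adjusted P = 0.34). The laminin genes Lama2, Lama4, Lamb2, Lamc1 and Lamc3 were higher by 0.62 to 0.93, under the fold threshold, and Lama2 passed in only 1 of the 6 fits without one library, that without BCAS replicate 2 (otherwise adjusted P 0.0660 to 0.0969). The count of up-regulated DEGs in this list was 6 without sham replicate 2, 7 without BCAS replicate 2 and 2 with DESeq2. Without BCAS replicate 1, 1 gene of the list was lower by adjusted P in edgeR.

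Of 16 genes whose products sit on or between collagen fibrils, 15 were tested, 10 (66.7%, beside 18% of all genes) were higher by adjusted P, 8 of these (53.3%, beside 8.47%) were up-regulated DEGs and 0 were lower, with a median of 1.04. Thbs1, a matricellular glycoprotein, was at 4.75, 4.998 and 6.53 CPM in sham and 18.01, 22.2 and 30.0 CPM in BCAS (log2 fold change 2.11 ± 0.21, edgeR adjusted P = 1.54e-04). The small proteoglycan Bgn was at 17.8, 20.1 and 33.6 CPM in sham and 56.1, 56.9 and 72.2 CPM in BCAS (1.37 ± 0.22, adjusted P = 0.0022). Fibronectin, Fn1, on which new fibrils are laid down, was at 70.5, 52.6 and 82.9 CPM in sham and 107, 176 and 185 CPM in BCAS (1.18 ± 0.22, adjusted P = 0.0044), with BCAS replicate 1 the lowest of its group as for the type I and III chains. Ogn, given above, is also a fibril proteoglycan, and Dcn and Prelp had the highest levels per length in sham (12.7 and 10.8 RPKM), while in BCAS Fmod, another fibril proteoglycan, was at 19.5 RPKM, above Prelp at 16.3 and Dcn at 15.3 RPKM. Of the former pair, Prelp was higher by 0.60 (adjusted P = 0.034) but passed in only 1 of the 6 fits without one library, that without BCAS replicate 2 (otherwise adjusted P 0.0519 to 0.123).

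**Figure D5:**
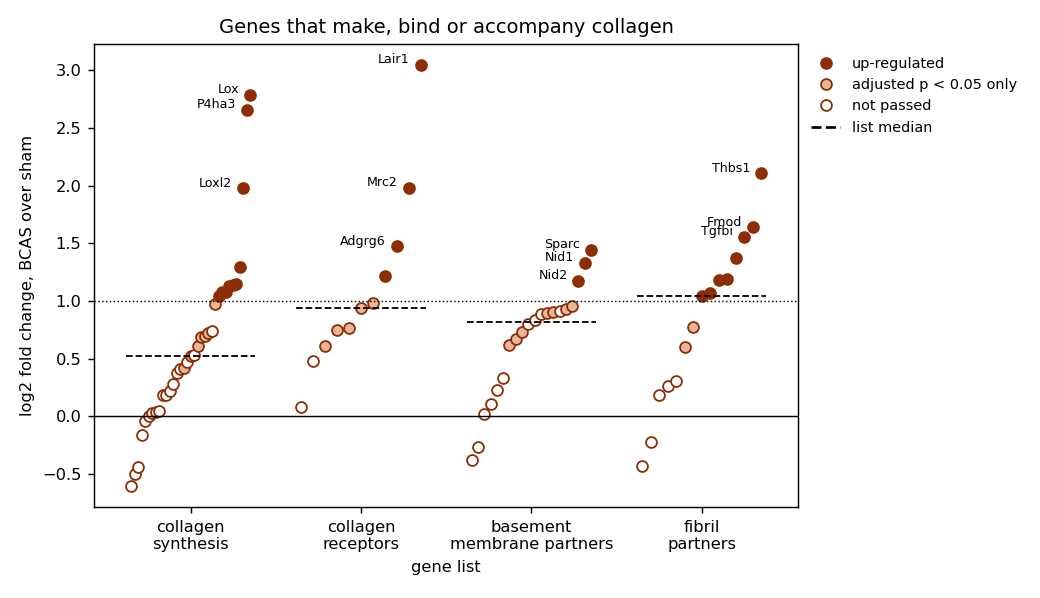
Log2 fold change (BCAS over sham) of each tested gene of the lists for collagen synthesis (35), collagen receptors (11), basement membrane partners (20) and fibril partners (15), sorted within each list. Filled points are up-regulated DEGs, shaded points have an adjusted P below 0.05 only, dashed lines are list medians and the dotted line marks a log2 fold change of 1; Lair1, Lox and P4ha3 are the highest.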

How the data were processed

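RNA-seq was made from the right hippocampus of 3 sham and 3 BCAS mice, with a library kit that does not mark strand. Per the methods, reads were trimmed by the authors, mapped to mm10 by HISAT2 and assigned to genes by featureCounts. The deposited values are raw counts per gene, without normalization, and per the file headers mates were counted separately, strand was ignored and reads with several alignments were left out. The headers name featureCounts 2.0.3 and GENCODE vM20, and the submitters' processing notes name version 1.6.3. Samples were grouped and numbered by their labels, while the count columns inside the BCAS tables carry the numbers 2 to 4, so a shared replicate number need not mark a pair. Symbols came from a gene name table, and 54723 of 54752 IDs matched.

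Genes were kept by filterByExpr, normalized by TMM and tested by edgeR 4.0.16 (quasi-likelihood) in R 4.3.3, with P values adjusted by Benjamini-Hochberg. The SE of a log2 fold change was taken as its absolute value divided by the square root of the quasi-likelihood F statistic. CPM used TMM library sizes, and RPKM is CPM per kilobase of all annotated exons of a gene. Levels per length and their ranks therefore depend on the annotation. The detection limit was set at 3 counts per library, 0.0875 to 0.0995 CPM, for counting error alone. The steps were tested on simulated data. Class, pathway and marker lists were written by hand, and the members and lists were chosen with earlier results of these data known. Library values are given for chains called up or down, for those lower by adjusted P and for the 3 chains per class with the highest mean RPKM, and from each list up to 4 called members with the smallest adjusted P and up to 2 with the highest RPKM. Other genes named were chosen after their values were seen. Alternatives were DESeq2 1.42.0, other normalizations and filters, glmTreat, halved counts, a replicate block and leaving out each library. Protein sequences were not used here.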

Additional observations from a re-analysis of the deposited data

How the results depend on the processing

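The 16 up-regulated DEG chains were 16 with DESeq2, beside 1558 of all 18617 genes tested. Of the 16 in edgeR, 12 were kept in every fit without one library. The exceptions were Col5a1, Col9a2, Col13a1 and Col24a1. A test against the fold threshold itself (glmTreat) called 3 of 43 chains, Col3a1, Col16a1 and Col27a1, beside 804 of all 18617 genes. Of the 3 chains, 2 were fibrillar, 0 basement membrane and 1 other. The same test called 2 genes of collagen synthesis, 2 receptors, 1 basement membrane partner and 1 fibril partner. Without a fold threshold the counts were 9 for the other chains, 17 for synthesis, 9 for receptors and 10 for basement membrane partners. Over all genes that count was 3356. Scaling by library totals, which moved the median of all genes from 0.02 to 0.10, gave 7 other chains and 5 basement membrane partners. It gave 1718 up-regulated DEGs over all genes. With the basement membrane class limited to type IV, 2 chains were called. Leaving out each library gave 13 to 17 chains in all, 6 to 8 fibrillar, 4 basement membrane and 2 to 6 other chains, 5 to 11 genes of synthesis, 3 to 5 receptors, 2 to 7 basement membrane partners and 6 to 8 fibril partners, and median log2 fold changes of 1.03 to 1.39 (fibrillar), 0.94 to 1.56 (basement membrane) and 0.49 to 0.76 (other). Over these fits 1210 to 1746 of all genes, out of 19051 to 19195 tested, were up-regulated DEGs. No chain that passed changed sign. Among the chains that did not pass, the log2 fold change spanned 0 over the fits without one library for Col6a6 (-0.139 to 1.464), Col11a1 (-0.044 to 0.27), Col17a1 (-0.646 to 2.358), Col19a1 (-0.051 to 0.144), Col22a1 (-0.307 to 0.017) and Col28a1 (-0.033 to 0.665), Col17a1 was at -0.067 with the choroid plexus term, and no cause was tested. The replicate numbers did not pair the samples (correlations of deviations 0.036, -0.31 and -0.16). A replicate block gave 15 up-regulated DEG chains, beside 1437 of all genes, Col13a1 being lost (adjusted P = 0.0866). Over all alternatives, single chains kept their sign and their DEG call, or the lack of one, in 635 fits. They gained a DEG call in 18 and lost one in 26. In this tally a call by adjusted P alone counted only in the fit without a fold threshold. Counts were low for Col10a1, with at most 6 counts per library, and in part for Col4a3, Col6a6, Col9a1, Col17a1 and Col28a1, which had fewer than 25 counts in a library of each group.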
